A study of Mus musculus with 49 samples.

Results

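Levels of 7 imprinted genes were measured on 49 one-colour arrays of mouse fibroblasts carrying reprogramming factors and of pluripotent stem cell lines, in 23 groups. The genes were H19, Cdkn1c, Phlda2, Ascl2, Dlk1, Mest and Peg3. They were found as the array probes whose current mouse gene symbol is one of these names, which gave 8 probes of 19426 and 7 genes of 13852 named on the array, with 2 probes for Mest. The series asked which factors can join or replace OCT4, SOX2, KLF4 and MYC in reprogramming.

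Pluripotent cells were represented by induced pluripotent stem cells (iPSC), in the lines called G6Gm, G3 and Dlx3RNAi, and by embryonic stem cells (ESC), in the lines R1 and B6. B6 was run on 3 arrays and each other line on 2. The label of line Dlx3RNAi gives RNA interference of Dlx3 as its treatment. The iPSC lines came from cells of strain OGXICR, R1 from strain 129 and B6 from C57BL\6. All of these lines were grown on mitotically inactivated mouse embryonic fibroblasts (MEF) as feeders, in medium with the inhibitors PD0325901 and CHIR99021 or with LIF in their place, so each line's RNA can hold RNA of feeder cells. Fibroblasts were female, of strain OGXICR, and were taken at embryonic stage D13.5 from limb and tail skin freed of its epidermis. Factors were carried by doxycycline-inducible lentiviruses. The factor sets were SKM (SOX2 with KLF4 and MYC) and OKM (OCT4 with KLF4 and MYC). An empty vector is written EV. SKM was joined by OCT4, GATA6, SOX7, PAX1, CEBPa, HNF4a, GRB2 or MIXL1 on 2 arrays each and by GATA4 on 3. SKM+EV and MEF1 EV, fibroblasts with the empty vector alone, had 2 arrays each. OKM+EV had 3 arrays and its fibroblasts, MEF2 EV, had 2. OKM with SOX1, SOX3, GMNN or SOX2 had 2 arrays each, as did the uninfected MEF. Nothing in the labels says that arrays of a group are separate cultures, so p-values measure only the spread between these arrays, which may be technical.

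Values are linear intensities as deposited. By their pattern of missing values the arrays fall into 5 sets. These were taken to have been normalized separately, which no label states, and all tests were made within a set. One set holds ESC B6 alone, one MEF2 EV and OKM+EV, one the OKM groups with a further factor, one MEF1 EV and all SKM groups, and one the uninfected MEF with the iPSC lines and R1. H19, Mest, Peg3 and Phlda2 had values on all 49 arrays. Dlk1 and Cdkn1c had values on 26 arrays and none in the SKM set, and Ascl2 had values on 28 arrays, those of the SKM set and of the set with OKM+EV. A gene was called where the adjusted p of limma's moderated test was under 0.05, two-sided, with Benjamini-Hochberg adjustment over all genes of the comparison. Log2 fold changes are of intensity plus 32, which understates changes of dim genes.

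Pluripotency markers went with the label of the lines. Of 13 listed, 5 were measured, and all 5 were called higher in the 4 lines set against uninfected MEF. Their summed intensity was 9993 to 17897 in these lines and 675 to 683 in those MEF. In G6Gm, Dlx3RNAi and R1, 1 of the 5 lay below the median of all genes, and in G3 0 did. The 17 measured fibroblast markers summed to 21420 to 70903 in the lines and 122478 to 127678 in the MEF, and none of them was at 0. Array 3 of OKM+EV stood apart from the other 2 of its group, with a median absolute log2 difference of 0.74 and 0.61 to them against 0.202 between them. Results of that comparison are therefore given with and without it.

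Imprinted genes are transcribed mainly from the allele of 1 parent, often through DNA methylation laid down in egg or sperm and kept through later cell divisions. Many of them set the growth of fetus and placenta, and their levels in cultured stem cells are known to drift between lines. The arrays measured total RNA of each gene, so the parental alleles cannot be told apart here. H19, Cdkn1c, Phlda2 and Ascl2 are expressed from the maternal allele, and Dlk1, Mest and Peg3 from the paternal one.

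The genes lie in 4 places of the genome (build GRCm38.p6, gene spans from RefSeq). H19, a long non-coding RNA next to the growth factor gene Igf2, spans chr7:142575530-142578146. Ascl2, a transcription factor needed in trophoblast, spans chr7:142966822-142969264, which is 389 kb from H19. Cdkn1c, an inhibitor of cyclin-dependent kinases, spans chr7:143458339-143461059. Phlda2, a pleckstrin homology domain protein that restrains placental growth, spans chr7:143501545-143503145, only 40.5 kb from Cdkn1c. Far from these on the same chromosome lies Peg3, a zinc finger protein, at chr7:6703892-6730462. Mest, a protein of the hydrolase fold, lies at chr6:30733506-30748466, and Dlk1, a membrane protein of the Notch ligand family, at chr12:109452485-109463336.

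Methylation was not measured, and whether the imprint of a gene lies in its promoter was not tested. To let a reader compare CpG content, promoter sequences are shown for 4 genes. These have a RefSeq promoter window and were called in comparisons of the SKM set. Each is the 250 bases before a RefSeq start (GRCm38.p6), read 5′ to 3′ on the gene's strand, with every CpG in capitals.
Phlda2, chr7:143502525-143502774 (- strand): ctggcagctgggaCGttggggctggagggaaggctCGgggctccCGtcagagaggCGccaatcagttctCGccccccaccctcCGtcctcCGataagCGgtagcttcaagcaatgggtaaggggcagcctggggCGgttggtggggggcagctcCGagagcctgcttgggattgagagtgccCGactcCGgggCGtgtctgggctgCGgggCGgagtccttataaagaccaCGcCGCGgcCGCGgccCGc
Ascl2, chr7:142969265-142969514 (- strand): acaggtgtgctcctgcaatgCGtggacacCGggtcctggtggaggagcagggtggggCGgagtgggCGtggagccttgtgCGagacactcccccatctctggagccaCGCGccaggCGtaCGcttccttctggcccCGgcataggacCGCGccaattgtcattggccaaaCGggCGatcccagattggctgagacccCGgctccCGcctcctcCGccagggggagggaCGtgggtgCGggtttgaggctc
Mest, chr6:30737800-30738049 (+ strand): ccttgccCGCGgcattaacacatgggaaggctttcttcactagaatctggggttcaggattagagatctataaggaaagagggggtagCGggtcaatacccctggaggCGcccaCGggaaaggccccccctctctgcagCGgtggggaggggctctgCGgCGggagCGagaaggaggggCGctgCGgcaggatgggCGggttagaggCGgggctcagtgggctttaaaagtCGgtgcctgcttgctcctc
Peg3, chr7:6730420-6730669 (- strand): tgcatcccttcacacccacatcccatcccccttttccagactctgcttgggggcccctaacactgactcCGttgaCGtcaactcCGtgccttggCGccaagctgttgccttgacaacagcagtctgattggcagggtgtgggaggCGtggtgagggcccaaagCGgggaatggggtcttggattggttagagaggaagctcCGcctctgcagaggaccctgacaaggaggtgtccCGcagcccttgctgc
Of 32851 promoter windows of this length, the median held 6 CpGs. The Phlda2 window held 21, and 16.3% of all windows held at least as many. The Ascl2 window held 19, a count reached by 19.7% of windows, and the Mest window held 14, reached by 29.4%. Mest has another RefSeq start upstream, whose window held 7 CpGs. Peg3, like Dlk1, held 8. Both strands of each window were searched for TGCCGC, the letters that the imprint-keeping protein ZFP57 is known to bind. They occurred 2 times in the printed Mest window and in none of the other windows printed, while 8.7% of all windows held them. A match is a description of the letters only.

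H19 and Mest also host microRNAs, which these arrays did not measure. Their mature sequences from RefSeq, with the seed (bases 2 to 8) in capitals, show that the 4 seeds differ. The first pair lies within H19 and the second within Mest.
mmu-miR-675-5p: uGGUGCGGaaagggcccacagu
mmu-miR-675-3p: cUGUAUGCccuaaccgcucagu
mmu-miR-335-5p: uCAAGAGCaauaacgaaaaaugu
mmu-miR-335-3p: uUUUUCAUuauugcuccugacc

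Against uninfected MEF, 5 of the 6 genes measured were lower in the 4 pluripotent lines and Phlda2 alone was higher. The falls were 21.4-fold for H19, 27.2-fold for Dlk1, 18.9-fold for Cdkn1c, 6.91-fold for Mest and 6.46-fold for Peg3, and Phlda2 was 10.2-fold higher. All 6 were called, where 57.8% of all genes were called in either direction. The test uses the spread between arrays within a group, pooled over the groups of all sets that hold a value for the gene. It does not use the spread between lines.

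H19 had an intensity of 752 and 739 in G6Gm, 4180.2 and 3769.8 in G3, 1068 and 1181 in Dlx3RNAi and 1121 and 1282 in R1, against 31624 and 30270.5 in MEF. Every line array lay far below both MEF arrays, and G3 lay apart above the other lines. Its log2 fold change over the 4 lines was -4.42 (SE 0.12, limma adjusted p = 5.58e-23). Cdkn1c had 331 and 408 in G6Gm, 357 and 363 in G3, 310.4 and 294 in Dlx3RNAi and 337 and 282 in R1, against 6087 and 7771 in MEF. The lines sat close together at this low level, with no overlap with the MEF, and the log2 fold change was -4.24 (SE 0.14, limma adjusted p = 2.58e-15). Phlda2, the near neighbour of Cdkn1c, went the other way. It had 831 and 776 in G6Gm, 2180.1 and 2432 in G3, 1406 and 1310.3 in Dlx3RNAi and 673 and 694 in R1, against 90.4 and 76.4 in MEF. All 8 line arrays were above both MEF arrays, by a log2 fold change of 3.36 (SE 0.21, limma adjusted p = 2.37e-14).

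Of the paternally expressed genes, Dlk1 had 41.9 and 54.8 in G6Gm, 173 and 141 in G3, 49.2 and 36.6 in Dlx3RNAi and 99.5 and 83.7 in R1, against 2711 and 3139 in MEF. The line values lie near the low end of the scale and the log2 fold change was -4.76 (SE 0.20, limma adjusted p = 1.08e-13). Mest had 485 and 467 in G6Gm, 604 and 569 in G3, 166 and 160.2 in Dlx3RNAi and 269.8 and 271 in R1, against 2505 and 2529 in MEF. Dlx3RNAi was lowest and the groups did not overlap, with a log2 fold change of -2.79 (SE 0.17, limma adjusted p = 7.48e-15) and of -2.67 (SE 0.20) at the other Mest probe. Peg3 had 639.6 and 614 in G6Gm, 381 and 353 in G3, 194 and 208 in Dlx3RNAi and 204 and 179 in R1, against 1809 and 2619 in MEF. G6Gm was the highest line and still lay below both MEF arrays, with a log2 fold change of -2.69 (SE 0.18, limma adjusted p = 4.37e-14).

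**Figure D1:**
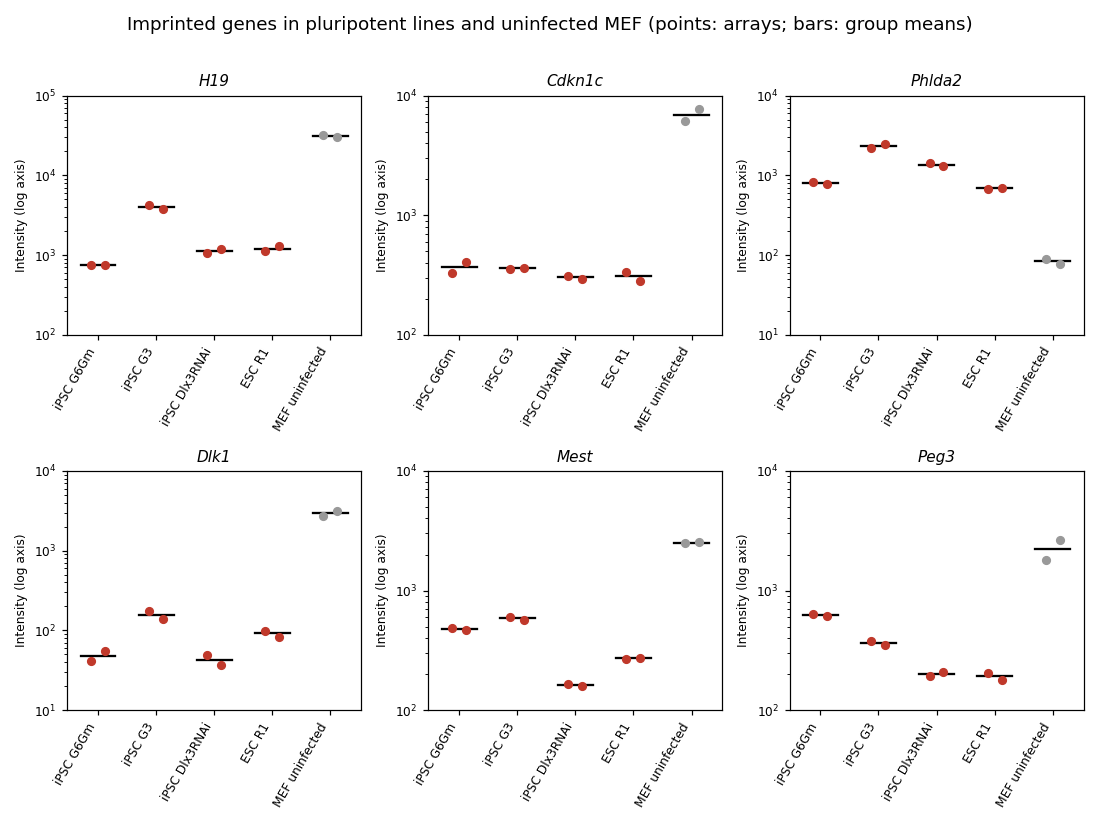
Intensity (log axis) of 6 imprinted genes on each array of the 4 pluripotent lines and of uninfected MEF, with a bar at each group mean. H19, Cdkn1c, Dlk1, Mest and Peg3 lie lower in all lines than in MEF, Phlda2 lies higher, and G3 has the highest H19, Dlk1 and Phlda2 of the lines.

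The fall of these genes ran beside a fall of fibroblast markers, of which 15 of 17 were called lower and 0 higher in the lines (2 did not pass). In RNA from whole cultures, fewer cells of a type and less RNA per cell cannot be told apart, and the part of feeder RNA in the line levels was not tested. ESC B6, with fibroblast markers summing to 5141 to 5557 over 15 genes, forms a set of its own and is given with no comparison. Its intensities were 449, 457 and 489 for H19, 1744, 1409 and 1659 for Cdkn1c and 3483, 2949 and 4195 for Phlda2. For the paternally expressed genes B6 had 71.0, 80.7 and 76.5 for Dlk1, 806, 637 and 808 for Mest and 3272, 2665 and 3282 for Peg3.

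Other imprinted genes did not move in 1 direction. Of 44 others tested in the lines against MEF, 14 were higher, 16 were lower and 14 did not pass, beside 57.8% of all genes called, with a median log2 fold change of 0.00 beside 0.03 over all genes. Among 23 maternally expressed ones 3 were higher and 9 lower, and among 21 paternally expressed ones 11 were higher and 7 lower. The largest falls were those of Grb10, an adaptor that damps growth factor signalling, at -2.32 (adjusted p = 4.96e-18), Plagl1, a zinc finger regulator of other imprinted genes, at -2.01 (adjusted p = 7.37e-18), and Igf2 at -1.97 (adjusted p = 1.02e-18). Igf2r, the receptor that clears IGF2, had a log2 fold change of -1.86 (adjusted p = 1.97e-12) and Tssc4 of -1.60 (adjusted p = 2.24e-10). Higher were Gab1 at 2.35 (adjusted p = 7.09e-11), Gnas at 1.21 (adjusted p = 4.59e-06), Slc38a4 at 1.14 (adjusted p = 0.00159), Mcts2 at 1.10 (adjusted p = 3.74e-05) and Sfmbt2 at 1.09 (adjusted p = 2.72e-08). Of 13 genes of DNA methylation, histone methylation and imprint upkeep, 7 were higher and 2 lower in the lines, where the same 57.8% of all genes were called. They included Dnmt3b, a de novo DNA methyltransferase, at 3.33 (adjusted p = 9.13e-15), Uhrf1, which brings the maintenance methyltransferase to newly copied DNA, at 2.46 (adjusted p = 6e-09), and the histone methyltransferase Ezh2 at 2.44 (adjusted p = 8.53e-09). Ehmt2, another histone methyltransferase, was lower at -1.32 (adjusted p = 3.16e-11), as was Mbd3 at -1.02 (adjusted p = 6.38e-06).

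The 4 lines differed from each other in 5 of the 6 genes, and H19 differed most. Over the 6 pairs of lines 22 of 36 tests were called, where 15.5% of all tests over these pairs were called. Pairs that have a line in common share its arrays, so the 22 calls are not separate observations. By pair, G6Gm differed from R1 in 3 genes (17.6% of all genes), G3 from R1 in 4 (8.33%) and Dlx3RNAi from R1 in 3 (19.4%). Between iPSC lines, G6Gm differed from G3 in 4 (19.7%), Dlx3RNAi from G3 in 5 (25.3%) and Dlx3RNAi from G6Gm in 3 (2.84%). Cdkn1c was called by limma in 0 of 6 pairs, with 0 at an unadjusted p under 0.05 and 0 called in a fit of this set alone.

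H19 in line G3 averaged 3975 ± 290.2 (SD, n = 2), against 1201 ± 114 (SD, n = 2) in R1, a log2 fold change of 1.70 (SE 0.15, limma adjusted p = 3.39e-09). G6Gm was the lowest line for H19, at 746 ± 9.35 (SD, n = 2), and was lower than G3, with a log2 fold change of -2.36 (SE 0.15, limma adjusted p = 9.76e-13). Dlx3RNAi averaged 1125 ± 79.7 (SD, n = 2) and was lower than G3 as well, at -1.79 (SE 0.15, limma adjusted p = 2.31e-10). The arrays of Dlx3RNAi and R1 overlapped. H19 lay 3.25-fold higher in G3 than in R1, and fibroblast markers summed to 21420 to 21848 in G3 and 32964 to 34955 in R1. The part of feeder RNA in H19 was not tested.

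Igf2, which lies beside H19 and is expressed from the opposite allele, took another order. Its intensity was 12284 and 10817 in G6Gm, 4305 and 3942 in G3, 15894 and 16149.9 in Dlx3RNAi and 9776 and 9722 in R1, against 38139 and 34760.4 in MEF. Line G3, highest for H19, was lowest for Igf2, with a log2 fold change against R1 of -1.24 (SE 0.10, limma adjusted p = 1.32e-09). The order of Igf2 over the lines, from G3 up through R1 and G6Gm to Dlx3RNAi, was the order of the fibroblast marker sums, which were 21420 to 21848, 32964 to 34955, 54991 to 56067 and 68725 to 70903. The part of feeder RNA in Igf2 was not tested.

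**Figure D2:**
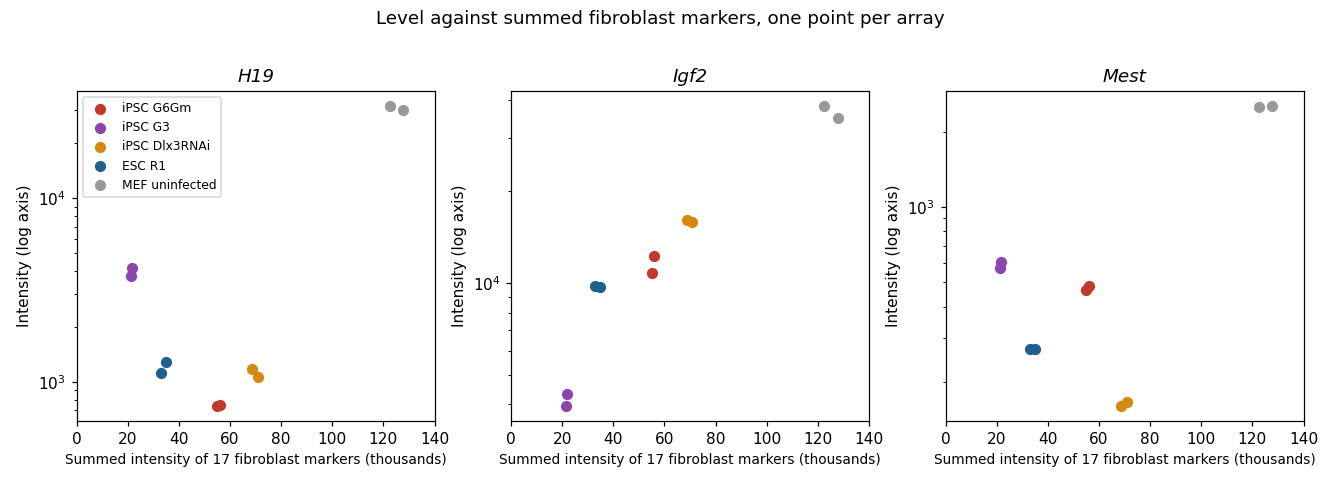
Intensity (log axis) of H19, Igf2 and Mest on each array of the 4 lines and of uninfected MEF, against the summed intensity of 17 fibroblast markers on the x axis. Igf2 rises with the marker sum over all 5 groups, while H19 is highest among the lines in G3, the line with the lowest sum of 21420 to 21848, and Mest is lowest in Dlx3RNAi, the line with the highest.

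Phlda2 was also highest in G3, at 2306 ± 178 (SD, n = 2), against 683 ± 14.6 (SD, n = 2) in R1, a log2 fold change of 1.71 (SE 0.27, limma adjusted p = 6.42e-05). In Dlx3RNAi it lay 0.96 (SE 0.27, limma adjusted p = 0.0108) above R1, a call that 3 of 4 left-out arrays end. Dlk1 was higher in G3 than in G6Gm and Dlx3RNAi, whose log2 fold changes against G3 were -1.23 (SE 0.25, limma adjusted p = 0.0012) and -1.34 (SE 0.25, limma adjusted p = 0.000447).

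Mest was lowest in Dlx3RNAi, at 163 ± 3.79 (SD, n = 2), against 586 ± 24.8 (SD, n = 2) in G3 and 476 ± 12.7 (SD, n = 2) in G6Gm. Its log2 fold changes were -1.67 (SE 0.21, limma adjusted p = 5.1e-07) against G3 and -1.38 (SE 0.21, limma adjusted p = 0.000213) against G6Gm. This low level stood in the line with the highest fibroblast marker sum. Peg3 was highest in G6Gm, at 627 ± 18.1 (SD, n = 2), against 191 ± 17.6 (SD, n = 2) in R1, a log2 fold change of 1.56 (SE 0.22, limma adjusted p = 5.88e-06). Dlx3RNAi and R1 overlapped for Peg3, and the difference between Dlx3RNAi and G6Gm was -1.50 (SE 0.22, limma adjusted p = 0.000124).

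Over the 3 iPSC lines together, 2 of 6 genes were higher than in R1 and 0 were lower, where 7.20% of all genes were higher and 6.35% lower. Of the 4 others, 2 had an unadjusted p under 0.05. Phlda2 was higher by 0.96 (SE 0.22, limma adjusted p = 0.00256) and Peg3 by 0.82 (SE 0.18, limma adjusted p = 0.00183), though arrays of Dlx3RNAi overlapped R1 for Peg3. A fit of this set alone called 4 of 6, adding H19 and Mest. Without array 2 of R1 the adjusted p of Peg3 was 0.0671, and without array 1 of R1 that of Phlda2 was 0.0568. Of 44 other imprinted genes, 5 were higher in the iPSC lines, led by Zdbf2 at 0.65 (adjusted p = 0.00785), and 3 were lower, Slc38a4 at -0.87 (adjusted p = 0.0492), Gab1 at -0.78 (adjusted p = 0.00527) and Plagl1 at -0.70 (adjusted p = 3.14e-06). The Plagl1 difference was largest in Dlx3RNAi, at -1.71 (adjusted p = 6.04e-12) against R1 and -1.43 (adjusted p = 7.11e-10) against G6Gm. Dnmt3b was higher in the iPSC lines, at 1.09 (adjusted p = 5.53e-05). The iPSC lines and R1 also differ in strain, so strain and line type cannot be told apart.

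In fibroblasts with SKM+EV, Mest and Peg3 were lower and Phlda2 was higher than in MEF1 EV, while H19 and Ascl2 were not called. That is 3 of 5 genes, where 19.7% of all genes were called. Mest had 894 and 785 in SKM+EV, against 7299.6 and 5202 in MEF1 EV. Both SKM+EV arrays were far lower and the log2 fold change was -2.83 (SE 0.21, limma adjusted p = 5.59e-12). Peg3 had 3378 and 2400.2 in SKM+EV, against 10765 and 7542 in MEF1 EV, again with no overlap, a log2 fold change of -1.65 (SE 0.22, limma adjusted p = 1.05e-06). Phlda2 had 643 and 585 in SKM+EV, against 49.6 and 119 in MEF1 EV. It was higher on both SKM+EV arrays, by 2.54 (SE 0.27, limma adjusted p = 1.13e-08). H19 had 51679.6 and 49915 in SKM+EV, against 53248 and 57307 in MEF1 EV, and the log2 fold change of -0.12 (SE 0.15, limma adjusted p = 0.667) did not pass.

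Ascl2 had 117 and 89.4 in SKM+EV, against 68.9 and 66.7 in MEF1 EV, with a log2 fold change of 0.43 (SE 0.32, limma adjusted p = 0.413), and a fit of this set alone did call it, at an adjusted p of 0.025.

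H19 lay near the top of the scale in both groups. On these arrays 18 to 29 of 11111 named probes were brighter than H19, and the brightest intensity of the set was 65470.1 to 65477.3. In GATA4+SKM and GATA6+SKM H19 was dimmer, with 174 to 228 probes above it.

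Of 35 other imprinted genes tested in SKM+EV against MEF1 EV, 2 were higher, 8 were lower and 25 did not pass. Of all genes, 19.7% were called in this comparison. Tspan32, a tetraspanin gene, was higher at 1.57 (adjusted p = 7.17e-05), as was Dio3, which inactivates thyroid hormone, at 1.12 (adjusted p = 5.52e-05). Among those lower were Plagl1 at -1.56 (adjusted p = 3.84e-12) and Klf14 at -1.03 (adjusted p = 0.00029). Beside these values, all 3 adipocyte markers measured were lower in SKM+EV, and 8 of 9 keratinocyte markers were higher in SKM+EV, summing to 106941 to 110956 against 2657 to 3094 in MEF1 EV, and 8 of 16 fibroblast markers were lower. The part of these cell states in the imprinted genes was not tested.

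Adding OCT4 to SKM raised 4 of 5 genes relative to SKM+EV, where 11.0% of all genes were called. Ascl2 had 545 and 543 in OCT4+SKM, against 117 and 89.4 in SKM+EV. OCT4+SKM was the highest of all 11 groups of the set for Ascl2, whose levels elsewhere in the set lay from 33.2 to 117, and the log2 fold change was 2.10 (SE 0.32, limma adjusted p = 0.000112). Mest had 2148 and 2625 in OCT4+SKM, against 894 and 785 in SKM+EV, a log2 fold change of 1.47 (SE 0.21, limma adjusted p = 8.2e-06). Phlda2 had 1404 and 1851 in OCT4+SKM, against 643 and 585 in SKM+EV, a log2 fold change of 1.35 (SE 0.27, limma adjusted p = 0.000652). Peg3 had 5529.6 and 6619 in OCT4+SKM, against 3378 and 2400.2 in SKM+EV, a log2 fold change of 1.08 (SE 0.22, limma adjusted p = 0.000907). None of these 4 genes overlapped between the groups, but the share of all genes without overlap was not counted. With 2 arrays per group a lack of overlap says little. Ascl2 did not overlap between SKM+EV and MEF1 EV either, and was not called there. Beside these values, 6 of 9 keratinocyte markers were lower in OCT4+SKM, summing to 50156 to 54411 against 106941 to 110956 in SKM+EV, and 2 of 6 trophoblast markers were higher. Their part in the 4 genes was not tested. H19 did not pass, at 0.07 (SE 0.15, limma adjusted p = 0.866).

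Set against MEF1 EV, OCT4+SKM had higher Phlda2 and Ascl2 and lower Mest, 3 of 5 genes where 22.4% of all genes were called. Phlda2 was 14.8-fold higher, a log2 fold change of 3.89 (SE 0.27, limma adjusted p = 1.07e-12), and Ascl2 was 5.77-fold higher, at 2.53 (SE 0.32, limma adjusted p = 6.04e-06). Mest, for all its gain over SKM+EV, was 2.57-fold lower than in MEF1 EV, at -1.36 (SE 0.21, limma adjusted p = 1.31e-05). Peg3 did not pass, at -0.57 (SE 0.22, limma adjusted p = 0.062), and was called in a fit of this set alone, at an adjusted p of 0.0191. Phlda2 and Ascl2 are both known from trophoblast, and 4 of 6 trophoblast markers were higher in OCT4+SKM than in MEF1 EV. The markers summed to 3541 to 3644 against 2158 to 2368, with none at 0. In both groups 4 of the 6 lay below the median of all genes. MIXL1+SKM had a similar trophoblast sum, 3508 to 3530, with Ascl2 at 74.7 and 75.8. Also against MEF1 EV, 7 of 9 keratinocyte markers were higher in OCT4+SKM, summing to 50156 to 54411 against 2657 to 3094, and 8 of 16 fibroblast markers were lower. The part of these cell states in Phlda2, Ascl2 and Mest was not tested. Of 35 other imprinted genes, 4 were higher and 7 lower against MEF1 EV, led by Gatm, an enzyme of creatine synthesis, at 2.44 (adjusted p = 2.94e-13). Peg13 was lower, at -0.97 (adjusted p = 4.86e-05). Against SKM+EV 4 of 35 were higher and 2 were lower, where 11.0% of all genes were called. Those higher included Gatm at 2.45 (adjusted p = 1.19e-12) and Plagl1 at 1.06 (adjusted p = 5.92e-08). Those lower were Dio3 at -1.92 (adjusted p = 1.17e-08) and Tnfrsf23 at -0.97 (adjusted p = 0.00229).

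**Figure D3:**
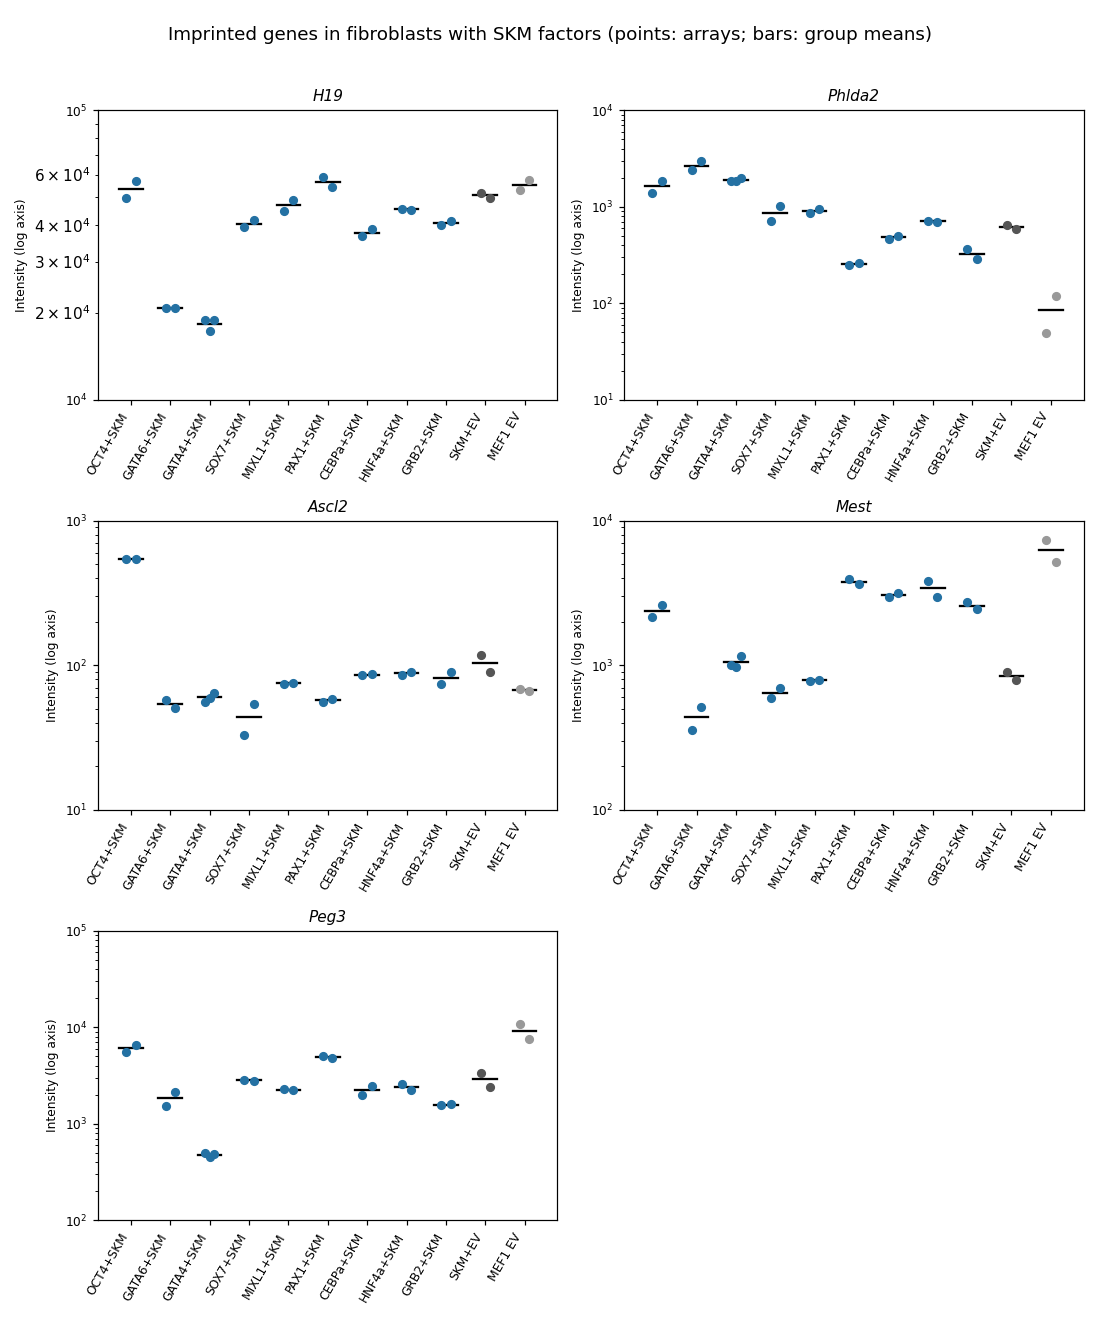
Intensity (log axis) of 5 imprinted genes on each array of the 9 groups with a factor added to SKM, of SKM+EV and of MEF1 EV, with a bar at each group mean. Ascl2 stands apart in OCT4+SKM, H19 is lowest in GATA4+SKM and GATA6+SKM, and Mest is above SKM+EV in OCT4, PAX1, CEBPa, HNF4a and GRB2.

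Across all 9 factors added to SKM, 20 of 45 tests against SKM+EV were called, where 26.0% of all tests were. These comparisons share the 2 SKM+EV arrays, so a shift in those arrays would enter each of them. By factor, called genes numbered 4 of 5 for GATA6 (22.0% of all genes), 3 for PAX1 (15.7%), 3 for GATA4 (53.8%), 2 for CEBPa (34.6%), 1 for HNF4a (42.5%) and 3 for GRB2 (40.3%), beside 4 for OCT4. Mest was called in 6 of the 9 comparisons, Phlda2 in 5, Peg3 in 5, H19 in 3 and Ascl2 in 1. A fit of the set alone also called Ascl2 lower with GATA6, SOX7, PAX1 and GATA4, and H19 lower with SOX7 and GRB2.

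The endoderm factors GATA4 and GATA6 had the lowest H19 and the highest Phlda2. H19 had 18783, 17335 and 18849 in GATA4+SKM and 20716 and 20776 in GATA6+SKM, against 51679.6 and 49915 in SKM+EV. Both groups lay below every other group of the set, with log2 fold changes of -1.47 (SE 0.14, limma adjusted p = 5.22e-10) for GATA4 and -1.29 (SE 0.15, limma adjusted p = 6.83e-08) for GATA6. Phlda2 had 1839.7, 1869.8 and 2011 in GATA4+SKM and 2400.2 and 2954 in GATA6+SKM, against 643 and 585 in SKM+EV. GATA6 lay above all other groups and GATA4 overlapped OCT4+SKM, with log2 fold changes of 2.06 (SE 0.27, limma adjusted p = 4.73e-07) for GATA6 and 1.59 (SE 0.25, limma adjusted p = 4.4e-06) for GATA4.

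Peg3 was lower with both factors, and Mest was lower with GATA6. Peg3 had 494, 449.9 and 487 in GATA4+SKM, the lowest of the set, a log2 fold change of -2.50 (SE 0.20, limma adjusted p = 1.92e-11) against SKM+EV. In GATA6+SKM it had 1541 and 2134, a log2 fold change of -0.64 (SE 0.22, limma adjusted p = 0.035) that 2 of 4 left-out arrays end. Mest had 359.7 and 518 in GATA6+SKM, the lowest of the set, at -0.91 (SE 0.21, limma adjusted p = 0.00187), a call that 1 of 4 left-out arrays ends, and 1010.4, 980.1 and 1165 in GATA4+SKM, which did not pass at 0.31 (SE 0.19, limma adjusted p = 0.176). The difference between GATA4 and GATA6 was not tested. Fibroblast marker sums were lower with these factors too, at 136712 to 144730 in GATA4+SKM and 86933 to 86995 in GATA6+SKM, against 194294 to 200064 in SKM+EV. Keratinocyte markers were lower as well, 8 of 9 with GATA4 and 6 of 9 with GATA6. Of all genes, 53.8% were called with GATA4 and 22.0% with GATA6, in either direction. Of 3 fetal liver markers, 2 were higher with GATA4 and 1 with GATA6. They summed to 7139 to 9433 in GATA4+SKM and 1644 to 1760 in GATA6+SKM, against 780 to 972 in SKM+EV. In GATA4+SKM 2 of the 3 lay below the median of all genes, so the sum rests on few genes. With SOX7, CEBPa, HNF4a and GRB2, 2 of 3 were higher as well. The part of these markers' cell states in the imprinted genes was not tested. Beside the 53.8% of all genes called with GATA4, of 35 other imprinted genes 7 were higher and 14 lower. They included Ppp1r9a, an actin-binding neurabin gene, at 2.09 (adjusted p = 1.07e-09), Grb10 at -1.58 (adjusted p = 5.39e-12) and Magel2 at -1.61 (adjusted p = 6.79e-05). With GATA6, Asb4 was higher at 2.17 (adjusted p = 2.84e-07) and Dio3 lower at -2.19 (adjusted p = 1.85e-10).

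Mest was higher with PAX1, CEBPa, HNF4a and GRB2. It had 3932 and 3662 in PAX1+SKM, 2948 and 3152 in CEBPa+SKM, 3840.0 and 2984 in HNF4a+SKM and 2721 and 2456 in GRB2+SKM, against 894 and 785 in SKM+EV. All arrays of the 4 groups lay above SKM+EV and below both MEF1 EV arrays. The log2 fold changes were 2.14 (SE 0.21, limma adjusted p = 1.03e-08) for PAX1, 1.82 (SE 0.21, limma adjusted p = 7.43e-08) for CEBPa, 1.97 (SE 0.21, limma adjusted p = 1.21e-08) for HNF4a and 1.59 (SE 0.21, limma adjusted p = 8.74e-07) for GRB2. In the same groups keratinocyte markers summed to 16485 to 18173 with PAX1, 36147 to 37872 with CEBPa, 19470 to 19713 with HNF4a and 23659 to 24083 with GRB2, below SKM+EV at 106941 to 110956. OCT4+SKM, also higher in Mest, had 50156 to 54411. In GATA4+SKM they were low as well, at 18774 to 20158, and Mest did not pass there. The part of these cell states in Mest was not tested.

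Phlda2 was lower with PAX1 and GRB2. It had 251 and 263 in PAX1+SKM and 365 and 290.4 in GRB2+SKM, against 643 and 585 in SKM+EV, with no overlap. The log2 fold changes were -1.16 (SE 0.27, limma adjusted p = 0.00276) for PAX1 and -0.85 (SE 0.27, limma adjusted p = 0.0126) for GRB2, and 2 of 4 left-out arrays end the GRB2 call. Peg3 rose with PAX1 at 0.79 (SE 0.22, limma adjusted p = 0.0136), a call that 2 of 4 left-out arrays end, and fell with GRB2 at -0.83 (SE 0.22, limma adjusted p = 0.00349), a call that 1 of 4 ends. H19 with CEBPa, at -0.43 (SE 0.15, limma adjusted p = 0.0271), lost its call whichever of the 4 arrays was left out. PAX1 also raised 2 imprinted genes by over 1 log2 unit, Plagl1 at 1.24 (adjusted p = 2.7e-09) and Gab1 at 1.11 (adjusted p = 0.00134), and Tspan32 was lower at -2.32 (adjusted p = 2.88e-07). Tspan32 was lower with HNF4a too, at -2.47 (adjusted p = 2.41e-08), with GRB2 at -2.06 (adjusted p = 8.78e-07) and with CEBPa at -1.95 (adjusted p = 2.04e-06), while Peg12 was higher with CEBPa at 1.43 (adjusted p = 1.39e-06).

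SOX7 and MIXL1 had 0 of 5 genes called by limma. For SOX7, 2 of 5 had an unadjusted p under 0.05 and a fit of that set alone called 2, H19 and Ascl2. For MIXL1, 0 of 5 had an unadjusted p under 0.05 and the fit of the set alone called 0. SOX7 had 12.1% of all genes called and MIXL1 had 2.10%. H19 in SOX7+SKM had 39621 and 41642, against 51679.6 and 49915 in SKM+EV, and Ascl2 had 33.2 and 54.0 in SOX7+SKM, against 117 and 89.4 in SKM+EV. Neither gene overlapped between the groups, but nor did Mest or Phlda2, which were not called in either fit. The share of all genes without overlap was not counted. For other imprinted genes, SOX7 had 3 higher and 2 lower of 35, and MIXL1 had 0 called, with 2 of 35 at an unadjusted p under 0.05.

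In order of level over the SKM set, Mest ran from MEF1 EV through PAX1, HNF4a, CEBPa, GRB2, OCT4, GATA4, SKM+EV, MIXL1 and SOX7 to GATA6. Arrays of neighbours overlapped between PAX1 and HNF4a, HNF4a and CEBPa, GRB2 and OCT4, and SKM+EV and MIXL1. Phlda2 ran from GATA6 through GATA4, OCT4, MIXL1, SOX7, HNF4a, SKM+EV, CEBPa, GRB2 and PAX1 to MEF1 EV, with overlaps between GATA4 and OCT4, MIXL1 and SOX7, and SOX7 and HNF4a. For H19 the 4 highest groups, PAX1, MEF1 EV, OCT4 and SKM+EV, overlapped each with the next.

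In fibroblasts with OKM+EV all 7 genes were called against MEF2 EV, 2 higher and 5 lower, where 40.8% of all genes were called. A fit of this set alone called 3 of 7, Cdkn1c, Phlda2 and Peg3. Phlda2 had 1988, 1512 and 889 in OKM+EV, against 66.4 and 96.6 in MEF2 EV. All OKM+EV arrays were higher, the third least so, by a log2 fold change of 3.66 (SE 0.25, limma adjusted p = 1.97e-13), and of 3.97 without the third array. Cdkn1c had 14005, 14598 and 17351 in OKM+EV, against 57377 and 53650.2 in MEF2 EV. It was lower on all 3 arrays, at -1.86 (SE 0.16, limma adjusted p = 1.39e-08), and -1.95 without the third. The MEF2 EV values lie close to the brightest intensity of the set, 62360.4 to 63457. So here too these neighbours moved in opposite directions. H19 had 38205, 38373 and 23798 in OKM+EV, against 49109 and 59512 in MEF2 EV, a log2 fold change of -0.73 (SE 0.14, limma adjusted p = 8.33e-05), and -0.50 without the third array.

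Peg3 had 3272, 2484 and 2119 in OKM+EV, against 473 and 717 in MEF2 EV. It was higher on all 3 arrays, by 2.09 (SE 0.20, limma adjusted p = 6.85e-10), and 2.23 without the third. SKM+EV had lower Peg3 than its own fibroblasts, MEF1 EV, and that difference between factor sets was not tested. Dlk1 had 787, 1115 and 1764 in OKM+EV, against 3403 and 3865 in MEF2 EV, with no overlap, a log2 fold change of -1.62 (SE 0.23, limma adjusted p = 9.88e-06), and -1.92 without the third array. Mest had 897, 896 and 1407 in OKM+EV, against 1369 and 2112 in MEF2 EV. The third OKM+EV array overlapped MEF2 EV, the log2 fold change was -0.69 (SE 0.19, limma adjusted p = 0.00484), and it was -0.90 without that array. At the other Mest probe it was -1.54 (SE 0.23). Without array 2 of MEF2 EV the Mest call was lost, at an adjusted p of 0.23. Ascl2 had 86.8, 71.6 and 291 in OKM+EV, against 309 and 242 in MEF2 EV. The third array alone reached the MEF2 EV level, and the log2 fold change was -0.95 (SE 0.29, limma adjusted p = 0.013), and -1.46 without it. Leaving out any of 3 of the 5 arrays ended the Ascl2 call, where the highest adjusted p was 0.111.

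Of 40 other imprinted genes, 4 were higher in OKM+EV and 8 lower, where 40.8% of all genes were called. Tspan32 was higher at 1.76 (adjusted p = 1.19e-06) and Slc38a4, an amino acid transporter, at 1.07 (adjusted p = 0.0112), while Gatm was lower at -1.35 (adjusted p = 5.85e-09) and Peg13 at -0.99 (adjusted p = 3.32e-06). Fibroblast markers summed to 165843 to 171281 in OKM+EV and 163300 to 175414 in MEF2 EV, so their sum overlapped between the groups. Of the 18 fibroblast markers tested, 7 were called higher in OKM+EV and 2 lower, so an overlap of the sum does not mean that they were unchanged. Keratinocyte markers summed to 42682 to 69882 in OKM+EV and 1999 to 2193 in MEF2 EV, and 4 of 6 trophoblast markers were higher, summing to 4817 to 6514 against 2053 to 2285. All 5 adipocyte markers measured were lower in OKM+EV, summing to 11473 to 36693 in OKM+EV and 55179 to 67752 in MEF2 EV. Of 5 fetal liver markers 1 was higher and 1 lower, summing to 1325 to 2237 in OKM+EV and 8004 to 8129 in MEF2 EV. In both groups 4 of 5 fetal liver and 4 of 6 trophoblast markers lay below the median of all genes. Their part in the imprinted genes was not tested.

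**Figure D4:**
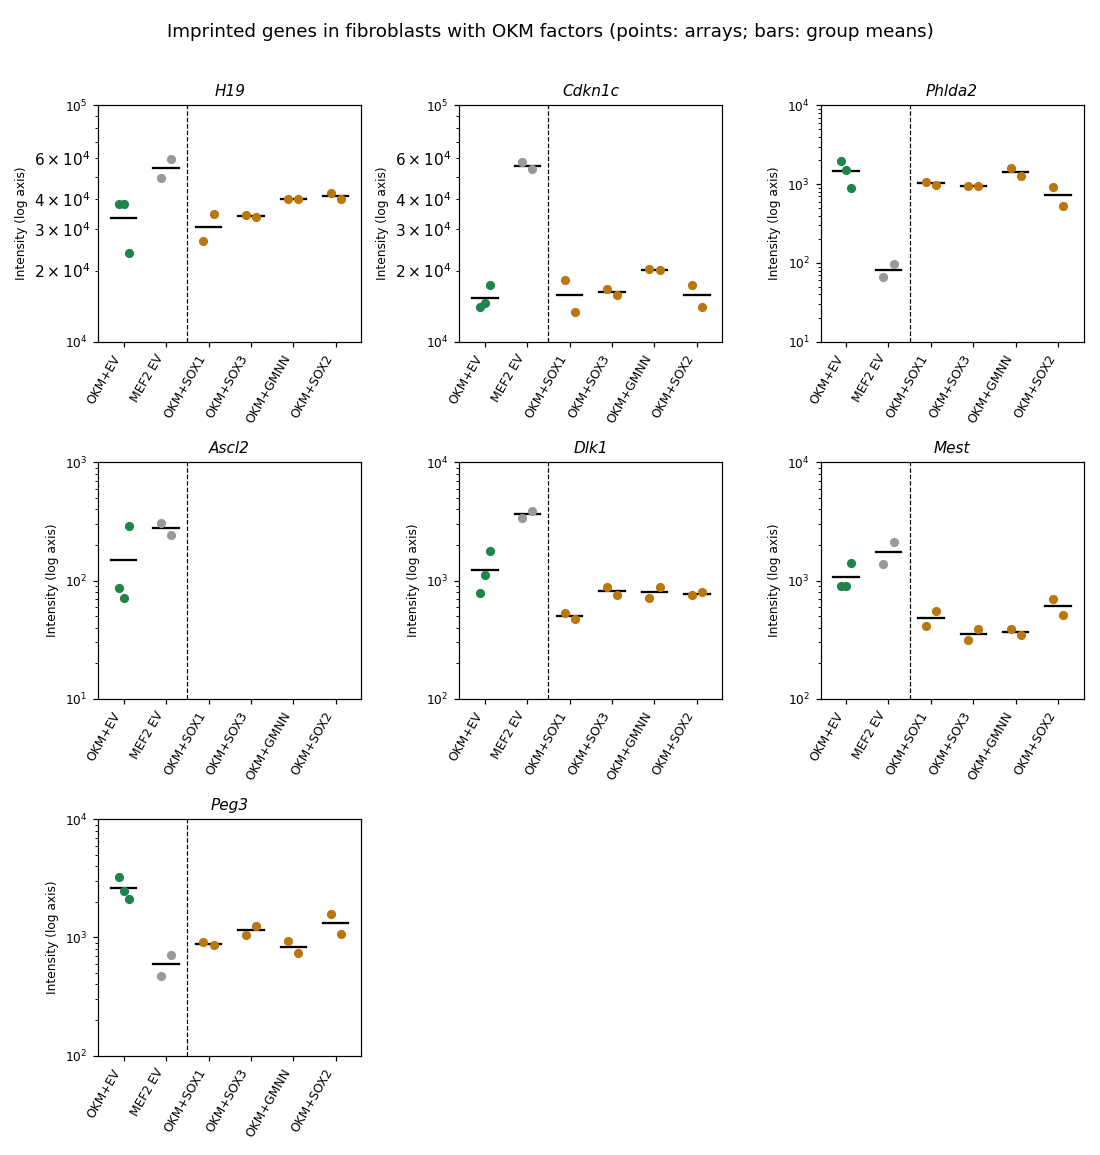
Intensity (log axis) of 7 imprinted genes on each array of OKM+EV and MEF2 EV, left of the dashed line, and of OKM with SOX1, SOX3, GMNN or SOX2, right of it, with a bar at each group mean. The dashed line parts 2 inferred normalization sets whose levels were not compared, and Ascl2 had no value in the right one. Phlda2 and Peg3 are higher in OKM+EV than in MEF2 EV, and Cdkn1c and Dlk1 are lower.

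With OKM, putting SOX1, SOX3 or GMNN in place of SOX2 left few differences that passed. Over the 3 comparisons 2 of 18 tests were called, where 6.42% of all tests were (5.72% for SOX1, 6.31% for SOX3 and 7.23% for GMNN), and a fit of this set alone called 0 of 18. Phlda2 had 1612 and 1259.7 in OKM+GMNN, against 932 and 527 in OKM+SOX2, a log2 fold change of 0.99 (SE 0.27, limma adjusted p = 0.0192) that 2 of 4 left-out arrays end. In the same comparison 7 of 11 keratinocyte markers were higher, summing to 102855 to 110151 in OKM+GMNN and 35639 to 35753 in OKM+SOX2, and their part in Phlda2 was not tested. Mest had 313 and 389 in OKM+SOX3, against 692 and 515 in OKM+SOX2, a log2 fold change of -0.72 (SE 0.21, limma adjusted p = 0.0378) that 3 of 4 left-out arrays end. SOX1 had 0 of 6 genes called by limma, with 3 at an unadjusted p under 0.05 and 0 called in a fit of the set alone. The other Mest probe, the brighter one in this set, was called lower with SOX1. It had 804 and 951 in OKM+SOX1, against 2121 and 1369.7 in OKM+SOX2, with no overlap, at -0.94 (SE 0.25, limma adjusted p = 0.0359), beside -0.31 (SE 0.21, limma adjusted p = 0.476) at the probe used. Cdkn1c had 18159 and 13411 in OKM+SOX1, 16641 and 15818 in OKM+SOX3 and 20380.2 and 20035 in OKM+GMNN, against 17406 and 13989.5 in OKM+SOX2, and passed in none. Dlk1 stayed between 476 and 883 on all 8 arrays, Peg3 between 733 and 1588, and H19 between 26609 and 42693. Of 40 other imprinted genes, 4 were called for SOX1, 5 for SOX3 and 4 for GMNN. Nnat, a neuronal membrane protein gene, was higher with SOX3 at 1.44 (adjusted p = 0.0129) and lower with GMNN at -1.15 (adjusted p = 0.0341).

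**Figure D5:**
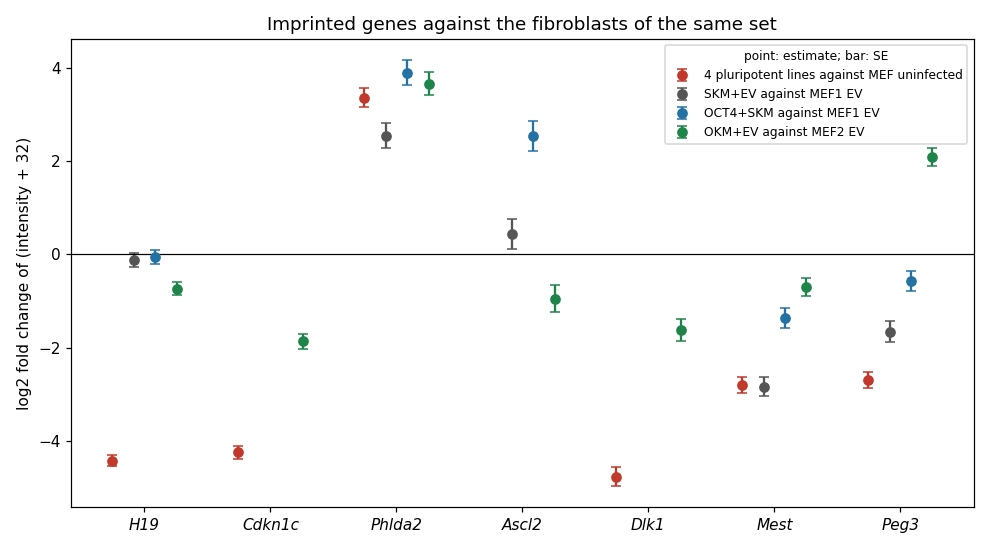
Log2 fold change of intensity plus 32, with its SE, for each imprinted gene in 4 comparisons against the fibroblasts of the same set. Phlda2 is above 0 in all 4 comparisons and Mest below 0, while Peg3 is above 0 in OKM+EV and below 0 in the pluripotent lines and in SKM+EV.

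Over all comparisons with fibroblasts, Phlda2 was the gene that was higher each time. It was called in the 4 lines, SKM+EV, OCT4+SKM and OKM+EV, with log2 fold changes of 3.36, 2.54, 3.89 and 3.66. Mest was lower each time, at -2.79, -2.83, -1.36 and -0.69. The last value, for OKM+EV, was not called in a fit of that set alone. It also lost its call without array 2 of MEF2 EV. Dlk1 and Cdkn1c, with no values in the SKM set, were called lower in the lines and in OKM+EV. In a limma fit of the set with OKM+EV alone Cdkn1c was called and Dlk1 was not, at an adjusted p of 0.0579. The comparisons of SKM+EV and OCT4+SKM share the MEF1 EV arrays.

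Likeness was described over group means centred within each set, with no test, since points of a set share their normalization and their cell source. Over 22 groups Phlda2 correlated with Mest at a Pearson r of -0.714, with H19 at -0.570 and with Peg3 at -0.425. Over the 11 groups with Cdkn1c, its r was -0.849 with Phlda2 and 0.896 with H19. Dlk1 and Cdkn1c had an r of 0.966 over 11 groups. The search took 8523 genes, those with a value on every array outside the set of ESC B6. Cdkn1c, Dlk1 and Ascl2 lack values in some of these sets and were not among the genes searched. Those most like H19 over 22 groups were Tcf4 at 0.897, Gas1 at 0.880 and Eln, the elastin gene, at 0.869. Those most like Mest were Meox1 at 0.879, Gstt1 at 0.868 and Tox at 0.857, and those most like Peg3 were Lrig3 at 0.904, Top2b at 0.866 and Pex5 at 0.860. Phlda2 was most like Psma6 at 0.924, Grtp1 at 0.913 and Map4k1 at 0.905. Over 11 groups Dlk1 was most like Sfrp2 and Smarca4, both at 0.981, and Tcf4 at 0.964, among the genes searched. Cdkn1c, which was not searched, lay above Tcf4 at 0.966. Cdkn1c was most like Erbb2 at 0.989, Tmem164 at 0.988 and Nckap5l at 0.988. Ascl2, over 13 groups, was most like Ggnbp1 at 0.866, Hdac10 at 0.862 and Plcg2 at 0.821.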

How the data were processed

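Total RNA was labelled with Cy5 and hybridised to one-colour arrays, per the labels' protocols. The authors deposited linear intensity values, 1 per probe and array. How the scanner images were read, corrected for background and normalized is "not given in the sources used here". From the pattern of missing values the arrays fall into 5 sets, and a gene was tested only within a set and where all arrays compared held a value.

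Probes took current symbols through RefSeq names: of 19426 probes, 15539 had 1 symbol, 13971 through a current symbol, 1538 through a synonym and 30 by the platform's name. For 1531 genes with several probes the one with the highest mean was used. Tests ran on log2(intensity + 32). All 49 arrays entered 1 model with a mean for each group (limma 3.58.1, R 4.3.3, eBayes with an intensity trend), with Benjamini-Hochberg adjustment over all genes of a comparison and a threshold of 0.05. The number of arrays limits the precision. The fit was tested on simulated data.

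The 7 genes, the lists of imprinted, methylation and marker genes and the tests were chosen with earlier results of these data known. All 7 genes are named. In each comparison named, up to 5 called genes per direction of the imprinted lists and up to 3 of the methylation list, by absolute log2 fold change, could be named, and for each of the 7 genes the 3 with the highest correlation. Alternatives were pseudocounts of 16 and 64, a fit per set, the replicate number as a block, the mean of all probes, a filter on dim genes, quantile normalization within a set, and leaving out each array. Same-numbered arrays deviated together (correlation over 0.1) in the single pair of groups of the set with OKM+EV (0.251), in 0 of 6 pairs of the OKM set with a further factor, 18 of 55 of the SKM set and 3 of 10 of the set with the lines. Since no label gives the numbers a meaning and most pairs did not pass, the numbers were not taken to pair the samples. 0 columns were without a sample.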

Additional observations from a re-analysis of the deposited data

Results flagged for a closer look

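Differences between pluripotent lines that passed limma's test are listed here as log2 fold changes, since each line is a group of its own. Against R1, line G6Gm differed in H19 by -0.66, in Mest by 0.75 and in Peg3 by 1.56. Line G3 differed from R1 in H19 by 1.70, in Mest by 1.03, in Peg3 by 0.84 and in Phlda2 by 1.71. Line Dlx3RNAi differed from R1 in Dlk1 by -0.72, in Mest by -0.63 and in Phlda2 by 0.96. At the other Mest probe Dlx3RNAi was not called against R1, at -0.25 (SE 0.25, limma adjusted p = 0.574).

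Between iPSC lines, G6Gm differed from G3 in H19 by -2.36, in Dlk1 by -1.23, in Peg3 by 0.72 and in Phlda2 by -1.48. Dlx3RNAi differed from G3 in H19 by -1.79, in Dlk1 by -1.34, in Mest by -1.67, in Peg3 by -0.78 and in Phlda2 by -0.75. Dlx3RNAi differed from G6Gm in H19 by 0.57, in Mest by -1.38 and in Peg3 by -1.50. With 2 arrays per line, 7 of these 22 calls ended whichever array was left out: H19 of Dlx3RNAi against G6Gm, Mest of G6Gm against R1, Peg3 of G6Gm against G3 and of G3 against R1, Phlda2 of Dlx3RNAi against G3, and Dlk1 and Mest of Dlx3RNAi against R1.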

How the results depend on the processing

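No member's log2 fold change that was called turned its sign under any alternative. A fit of each set alone called 4 of 6 genes for the 3 iPSC lines against R1 (2 in the fit over all arrays), 3 of 7 for OKM+EV against MEF2 EV (7) and 0 of 18 for SOX1, SOX3 and GMNN against SOX2 (2). With the replicate number as a block in that fit, the first of these was again 4 and the last again 0. For OKM+EV, in the set whose same-numbered arrays correlated at 0.251, the replicate block called 7, from 2 numbered pairs, since the third OKM+EV array has no partner. For the other results the block moved no count by over 1.5 times: 6 for the 4 lines against MEF, 25 for the pairs of lines, 4 each for SKM+EV and OCT4+SKM against MEF1 EV, and 26 for the 9 factors. The mean of all probes of a gene gave 4 of 18 for SOX1, SOX3 and GMNN. Leaving out 1 array gave 6 to 6 genes called for the 4 lines against MEF, 1 to 2 for the 3 iPSC lines against R1, 16 to 19 of 36 for the pairs of lines (22), 3 to 3 for SKM+EV, 3 to 4 for OCT4+SKM against MEF1 EV, 16 to 20 of 45 for the 9 factors, 6 to 7 for OKM+EV, and 1 to 4 for SOX1, SOX3 and GMNN. The cause was not tested. Of 128 single tests, the pseudocount of 16 moved 0 calls and that of 64 ended 2, Dlk1 and Mest of Dlx3RNAi against R1. The filter on dim genes left 102 tests and added 1 call, Mest of OKM+GMNN. Limits are the 2 or 3 arrays per group, the unknown normalization, the unknown background level under the dimmest values (Ascl2, Dlk1 in the lines, and Phlda2 in fibroblasts), and the top of the scale for H19 and, in MEF2 EV, Cdkn1c.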
